A study of Mus musculus with 60 samples.

Results

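Epidermal growth factor (EGF) receptor signalling was followed through 10 genes of cholangiocyte-derived organoids from mouse liver: the receptors Egfr, Erbb2 and Erbb3, the ligands Areg, Ereg and Hbegf, and the ERK-induced genes Dusp6, Spry2, Spry4 and Etv5. The 10 genes were taken by symbol, and each was found as 1 row in each of the 3 count tables, which held 23440, 23068 and 28773 genes. The organoids came from ducts of livers of male C57BL/6N mice labelled 3 to 4 months old and were grown in HepatiCult medium, always beginning in Matrigel domes. The first experiment compared 3 dome cultures with 3 cultures moved to dilute Matrigel on an orbital shaker (suspension), each from digested material pooled from several mice. The second compared bulk cultures of Sets 1, 3 and 4 labelled passage 4 with the same sets labelled passage 11, where each set was grown from the liver of 1 mouse and 2 technical replicates per culture were summed. The third held single organoids picked from suspension cultures, of which the 35 kept by the study were used: 8 organoids from Set 1 (passage 11), 10 from Set 2 and 5 from Set 3 (both passage 3) and 12 from Set 4 (passage 4). No gene was deleted and no agent was added in any group, and the sources used here do not say whether the passage cultures grew in domes or suspension.

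EGF receptor ligands are made as membrane-bound precursors and act after they are cut from the cell surface. Areg and Ereg encode amphiregulin and epiregulin, which bind EGFR, and epiregulin and heparin-binding EGF-like growth factor (Hbegf) also bind ERBB4. Receptor dimers activate the RAS-ERK cascade, which induces its own brakes: Dusp6 encodes a cytoplasmic phosphatase of ERK, Spry2 and Spry4 encode Sprouty inhibitors, and Etv5 encodes an ETS transcription factor. Cholangiocytes, the lining cells of bile ducts, use this pathway in growth and repair, and media for ductal organoids commonly supply EGF.

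Sequences just before the gene starts are shown for Areg, Egfr and Dusp6, the 3 genes on which the results turn. Areg and Egfr were lower at passage 11 in bulk cultures and differed between sets of single organoids. Dusp6 was higher in Set 1 than in each other set. RefSeq windows (GRCm38.p6) were read for 6 of the 10 genes, which does not show that the other genes lack one. Each line gives the 250 bases before the start on the strand of the gene, which is the plus strand for all 3, at chr5:91139349-91139598 for Areg, chr11:16751953-16752202 for Egfr and chr10:99262981-99263230 for Dusp6. Capitals mark a cAMP response element.
Areg: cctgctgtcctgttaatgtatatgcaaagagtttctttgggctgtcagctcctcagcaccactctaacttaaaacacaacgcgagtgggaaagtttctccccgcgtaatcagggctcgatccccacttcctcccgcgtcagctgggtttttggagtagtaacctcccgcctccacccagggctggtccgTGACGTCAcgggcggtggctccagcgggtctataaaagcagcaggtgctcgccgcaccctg
Egfr: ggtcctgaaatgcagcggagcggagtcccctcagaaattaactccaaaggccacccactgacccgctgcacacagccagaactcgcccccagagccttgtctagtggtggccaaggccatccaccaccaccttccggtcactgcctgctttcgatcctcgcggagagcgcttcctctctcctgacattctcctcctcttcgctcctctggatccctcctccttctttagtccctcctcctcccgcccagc
Dusp6: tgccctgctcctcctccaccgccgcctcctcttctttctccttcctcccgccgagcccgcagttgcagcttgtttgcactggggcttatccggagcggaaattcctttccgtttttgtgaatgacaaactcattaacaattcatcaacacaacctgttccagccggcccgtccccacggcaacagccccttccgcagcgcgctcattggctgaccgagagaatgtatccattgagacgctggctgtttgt
The element TGACGTCA began 61 bases before the Areg start. Of 32851 promoter windows of this length, 1.55% held it on either strand. Neither the ETS motif CCGGAAGT (2.88% of windows) nor the AP-1 motif TGANTCA (6.75%) was found in these 3 windows on either strand. Only these exact letters were searched, so looser forms of either motif may be present. A match here is a description of letters, and no binding was measured. Areg (chr5:91139599-91148432) and Ereg (chr5:91074622-91093646) lie on the same strand, with 45952 bp and 0 annotated protein-coding genes between them.

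Values are CPM, the counts of a gene relative to the library total, scaled by TMM within each table, so levels are comparable between libraries of 1 table only. Library totals were 1776490 to 14761853 counts for dome and suspension cultures, 1486347 to 5532630 for the passage cultures, and 1059002 to 11175868 for single organoids. Epcam, a surface marker of cholangiocytes, was present in every group at a median of 380.5 CPM or more, while Ptprc, which marks leukocytes, reached 1.47 CPM at most. The cholangiocyte list of 6 genes was not even: 2 were called higher and 1 lower in domes, and 1 higher and 1 lower at passage 11. Median Krt19 was 3286 CPM in domes and 959 CPM in suspension, while median Spp1 was 756 and 2872 CPM. The summed level of the endothelial markers reached 3.03 CPM at most and that of the mesenchymal markers 0.691 CPM. In bulk cultures, fewer cells expressing a gene and less RNA per cell cannot be told apart. P-values measure the spread between these pools, sets or organoids.

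In dome cultures, the receptor gene Egfr was lower and the receptor gene Erbb2 higher than in suspension, and the ERK phosphatase gene Dusp6 was higher. Of 9 genes tested, 2 were called higher and 1 lower, a share near that of all 12699 genes, of which 15% were higher, 14.7% lower and 29.8% either. Ereg had 0 counts in all 3 domes and 0, 1 and 4 counts in suspension and was not tested. At 3 counts, the limit that a count of 0 allows in the dome libraries is 0.228, 2.20 and 1.65 CPM.

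Egfr, which encodes the EGF receptor itself, had 7.61, 11.7 and 9.90 CPM in domes 1 to 3 and 20.4, 17.03 and 16.9 CPM in suspension. The groups did not overlap, as was the case for 47.4% of all genes. The fitted log2 fold-change was −0.97 (SE 0.25, adj. P = 0.0177, edgeR). Erbb2 encodes the receptor subunit that dimerises without a ligand of its own and had 28.6, 29.3 and 51.1 CPM in domes and 19.1, 15.1 and 23.8 CPM in suspension. Every dome library was above every suspension library, and the log2 fold-change came to 0.88 (SE 0.28, adj. P = 0.0393, edgeR). Its exons overlap those of Mien1 on the opposite strand, and without a stated strand setting of the counting, reads of the 2 cannot be told apart. Erbb3, a receptor for neuregulins, had 23.8, 27.9 and 29.7 CPM in domes and 15.4, 13.01 and 24.2 CPM in suspension, and the groups overlapped (log2 fold-change 0.59, SE 0.27, adj. P = 0.120, edgeR).

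Areg had 115, 191 and 56.1 CPM in domes and 56.0, 74.2 and 44.9 CPM in suspension. Suspension 2 was above dome 3, and the difference did not pass the test (log2 fold-change 1.05, SE 0.38, adj. P = 0.0599, edgeR). The labels describe 3 pools grown in both formats without tying a number to a pool. Deviations of same-numbered libraries correlated by 0.153 to 0.191, which does not establish a pairing, so taking replicate numbers as pools is an assumption. Under this assumption the dome was the higher of the pair in 3 of 3 pairs. With the replicate number as a block the log2 fold-change was 0.92 (adj. P = 0.00971, edgeR). Hbegf had 35.9, 38.1 and 26.9 CPM in domes and 41.0, 53.0 and 45.6 CPM in suspension, without overlap, and was not called (log2 fold-change −0.46, SE 0.21, adj. P = 0.115, edgeR).

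Of the feedback genes, Dusp6 had 28.0, 33.0 and 36.8 CPM in domes and 21.04, 21.99 and 18.4 CPM in suspension. All domes lay above all suspension cultures (log2 fold-change 0.66, SE 0.20, adj. P = 0.0351, edgeR). The Sprouty gene Spry2 had 4.72, 9.53 and 6.05 CPM in domes and 13.5, 13.5 and 7.99 CPM in suspension, with 1 dome above 1 suspension culture. Its difference was not called in the unblocked fit (log2 fold-change −0.90, adj. P = 0.0762, edgeR) and was called with the replicate number as a block (−0.92, adj. P = 0.0458, edgeR). Spry4 had 10, 0 and 0 counts in domes and 9, 7 and 17 counts in suspension, too few to call (adj. P = 0.131, edgeR). Etv5 had 4.19, 0.733 and 5.499 CPM in domes and 5.26, 4.26 and 5.79 CPM in suspension, and its low value in dome 2 rested on 1 count (log2 fold-change −0.43, adj. P = 0.451, edgeR).

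These calls did not hold in smaller groups. Without suspension replicate 1, 2 or 3, 0 of the 10 genes were called, although each of Egfr, Erbb2 and Dusp6 kept its direction. Calls over all genes fell as well, from 3779 to 1893, 2209 and 1926. Without suspension replicate 1 the adjusted P-values (edgeR) were 0.0836 for Egfr, 0.109 for Erbb2 and 0.102 for Dusp6. Without suspension replicate 2 they were 0.0521, 0.143 and 0.0936, and without suspension replicate 3 they were 0.0579, 0.0626 and 0.156. Leaving out dome replicate 1 ended the call of Egfr (adj. P = 0.0665, edgeR), leaving out dome replicate 3 ended those of Erbb2 (0.122) and Dusp6 (0.0777) and added Areg (0.00910), and leaving out dome replicate 2 added Spry2 (0.0319).

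Around these genes, pathway genes were called in both directions. Of all genes tested, 15% were called higher and 14.7% lower, and no list was tested against these shares. Of 2 other ligands tested, Tgfa, which encodes transforming growth factor alpha, was higher in domes by 1.10 on the log2 scale (SE 0.25, adj. P = 0.0102, edgeR). Of 4 genes for ligand shedding, none was called. Of 5 genes for receptor control, 1 was lower, Lrig1, an inhibitor of ERBB receptors (−1.39, adj. P = 0.0348, edgeR). Of 18 adaptors and cascade kinases, 3 were higher and 3 lower. Among the higher ones were Mapk3, which encodes ERK1 (1.25, adj. P = 0.00348, edgeR), and Grb2, an adaptor (0.99, adj. P = 0.00689), and among the lower ones was Braf, a kinase of the cascade (−1.69, adj. P = 0.00780). Of 15 other feedback genes and targets, 4 were higher and 3 lower. Those with the largest changes were Ier3 (1.82, adj. P = 0.00650, edgeR) and Dusp5, a nuclear ERK phosphatase (1.47, adj. P = 0.00824), among the higher ones, and Epha4 (−1.996, adj. P = 0.00143) and Etv4, an ETS factor related to Etv5 (−1.59, adj. P = 0.00765), among the lower ones. The list had a median log2 fold-change of −0.16 against −0.04 over all genes.

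Other measures moved with the culture format. All 8 proliferation genes were lower in domes, with a summed level of 166 to 365 CPM against 707 to 850 CPM in suspension, and the share of mitochondrial counts was 1.64% to 2.02% against 3.72% to 4.02%. The macrophage list, of which 5 of 6 genes were in the table, summed to 207 to 281 CPM against 524 to 649 CPM. Cd14 made up most of it and was lower in domes (log2 fold-change −1.605, adj. P = 0.00453, edgeR), while Cd68 was higher, with 6.02 to 90.2 CPM against 2.74 to 8.04 CPM (3.06, adj. P = 0.0223). Adgre1 was at 0 in all suspension libraries and Csf1r reached 3.24 CPM at most. The part of these in the changes above was not tested.

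**Figure D1:**
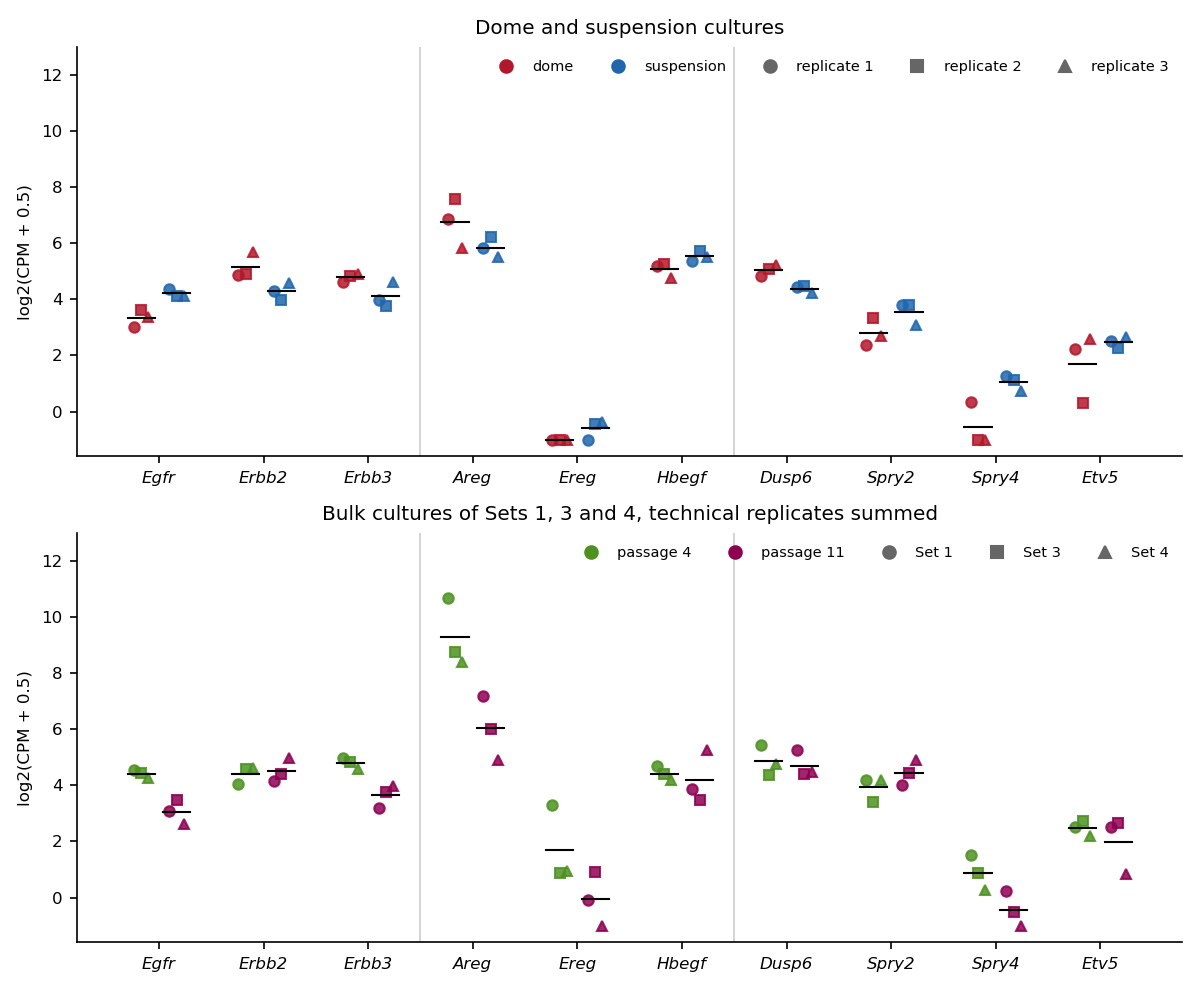
Level of each of the 10 genes as log2(CPM + 0.5), one point per library, with dome and suspension cultures above and passage 4 and passage 11 cultures below (marker shapes give the replicate or set; black lines are means of 3). Areg is the gene with the widest gap between passages, from 340 to 1634 CPM at passage 4 to between 29.3 and 145 CPM at passage 11.

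In bulk cultures at passage 11, Areg mRNA was 9.79-fold lower than at passage 4 in the same sets. The receptors Egfr and Erbb3 were below their passage 4 levels in all 3 sets. These 3 of the 10 genes were called, all lower, while 10.1% of the 13738 genes tested were called lower and 20.3% in either direction. The ERK feedback genes Dusp6, Spry2, Spry4 and Etv5 were not called.

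Areg had 1634, 429 and 340 CPM at passage 4 in Sets 1, 3 and 4 and 145, 64.2 and 29.3 CPM at passage 11. The lowest passage 4 culture was above the highest passage 11 culture, and so were the levels in each set. The fitted log2 fold-change was −3.29 (SE 0.65, adj. P = 0.00797, edgeR). Within sets the log2 differences were −3.49, −2.74 and −3.54. The order of the sets, Set 1 above Set 3 above Set 4, was the same at both passages.

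Egfr had 22.8, 21.1 and 18.8 CPM at passage 4 and 8.08, 10.5 and 5.72 CPM at passage 11. Its log2 fold-change was −1.28 (SE 0.23, adj. P = 0.00478, edgeR), a 2.43-fold lower level. Erbb3 had 31.1, 28.2 and 23.6 CPM at passage 4 and 8.75, 13.1 and 15.3 CPM at passage 11, and the log2 fold-change came to −1.20 (SE 0.22, adj. P = 0.00617, edgeR). Neither gene overlapped between passages, as was the case for 39.5% of all genes. Erbb2 had 16.1, 23.2 and 23.9 CPM at passage 4 and 17.5, 20.9 and 31.2 CPM at passage 11, with overlap and a log2 fold-change of 0.07 (95% interval −0.46 to 0.60, adj. P = 0.870, edgeR).

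Ereg, the neighbour of Areg, had 36, 7 and 8 counts at passage 4 and 2, 7 and 0 counts at passage 11. Set 1 alone had a high value, 9.33 CPM at passage 4, and the difference was not called (adj. P = 0.128, edgeR), but it was called when genes with low counts were kept (0.000795). Its exons overlap the antisense gene Gm19610, whose reads likewise cannot be told apart from its own. Hbegf had 25.1, 20.5 and 17.6 CPM at passage 4 and 14.1, 10.7 and 37.5 CPM at passage 11, so Sets 1 and 3 were lower at passage 11 and Set 4 was higher (log2 fold-change −0.17, 95% interval −1.01 to 0.68, adj. P = 0.796, edgeR).

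Dusp6 had 42.8, 20.3 and 26.6 CPM at passage 4 and 37.9, 20.5 and 21.6 CPM at passage 11. The groups overlapped, and the log2 fold-change of −0.13 had a 95% interval of −0.80 to 0.54 (adj. P = 0.809, edgeR). Spry2 had 17.9, 10.2 and 17.8 CPM at passage 4 and 15.7, 21.5 and 29.3 CPM at passage 11 (log2 fold-change 0.49, 95% interval −0.13 to 1.10, adj. P = 0.244, edgeR). Spry4 had 9, 7 and 4 counts at passage 4 and 3, 1 and 0 counts at passage 11, lower in each set but at a depth that did not allow a call (adj. P = 0.116, edgeR). Etv5 had 5.18, 6.14 and 4.05 CPM at passage 4 and 5.16, 5.77 and 1.27 CPM at passage 11, and the low value of Set 4 rested on 2 counts (log2 fold-change −0.15, 95% interval −1.02 to 0.71, adj. P = 0.823, edgeR).

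The calls of Areg, Egfr and Erbb3 were made in 15 of 15 alternatives, including without each library in turn and with the set as a block. Over these, the log2 fold-change was −4.02 to −2.24 for Areg and −1.52 to −1.16 for Egfr.

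Other parts of the pathway were read from lists. Of all genes tested, 10.1% were called higher and 10.1% lower, and no list was tested against these shares. Of 3 other ligands tested, Btc, which encodes betacellulin, was lower (log2 fold-change −0.98, SE 0.25, adj. P = 0.0220, edgeR). Of 4 genes for ligand shedding, 2 were lower, Rhbdf1 (−0.67, adj. P = 0.00968, edgeR) and Rhbdf2 (−0.92, adj. P = 0.0440), which encode the inactive rhomboids that carry the shedding protease ADAM17 to the surface. Of 5 genes for receptor control, Ptpn11, which encodes the phosphatase SHP2, was lower (−0.74, adj. P = 0.0182, edgeR). Of 18 adaptors and cascade genes, Hras was higher (0.81, adj. P = 0.00464, edgeR), and Nf1, a brake on RAS (−1.15, adj. P = 0.0380), and Sos2, an activator of RAS (−1.03, adj. P = 0.0475), were lower. Of 14 other feedback genes and targets, none was higher and 3 were lower, with the largest changes in Dusp4, a nuclear phosphatase of ERK (−2.53, SE 0.64, adj. P = 0.0210, edgeR) and Ier3 (−1.04, adj. P = 0.0168). The median log2 fold-change of this last list was −0.37 against −0.05 over all genes.

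Several lists moved with the passage label. Of 8 proliferation genes, 7 were higher at passage 11, and their sum was 773 to 1046 CPM against 286 to 338 CPM at passage 4. The single organoids went the other way: 6 of the 8 were lower in Set 1, the only set there at passage 11. Of 7 immediate early genes tested, 4 were lower, with sums of 527 to 612 CPM against 712 to 880 CPM. The macrophage list, of which 4 of 6 genes were in the table, summed to 381 to 624 CPM against 876 to 1159 CPM, nearly all of it Cd14, while Ptprc was at 0 in the 3 passage 11 libraries. The hepatocyte list, with 5 of 7 genes in the table, summed to 788 to 1147 CPM at passage 11 against 308 to 734 CPM, and 1 of its 4 tested genes, Apoa1, was called higher (log2 fold-change 4.66, adj. P = 0.0219, edgeR). Mitochondrial counts made up 0.895% to 1.71% against 1.99% to 2.63%. The part of these in the lower Areg, Egfr and Erbb3 was not tested.

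**Figure D2:**
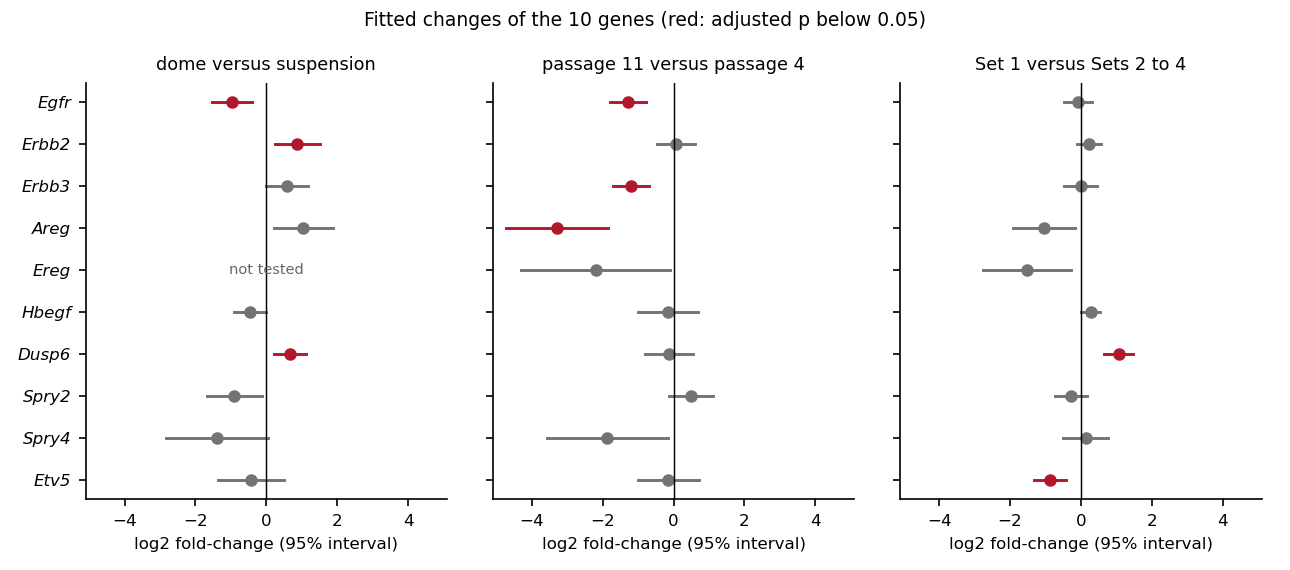
Fitted log2 fold-change of each of the 10 genes with its 95% interval in 3 comparisons (x axes; negative is lower in the first-named group), in red where the adjusted P-value was below 0.05. Areg, Egfr and Erbb3 were lower at passage 11, Dusp6 was higher and Etv5 lower in Set 1, and Ereg could not be tested between domes and suspension.

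Among single organoids, Set 1, the only set at passage 11, had more Dusp6 and less Etv5 than each other set, Egfr was lowest in Set 4, and Areg and Ereg were higher in Set 2 than in Sets 1 and 4. Over the 6 comparisons between sets, 14 of 60 tests of these genes were called. Of all genes, between 3.93% and 20% were called, depending on the comparison. The set comparisons share organoids with each other. With 1 mouse and 1 passage per set, the mouse, the passage and the history of the culture cannot be told apart among the single organoids. In the bulk cultures, Dusp6 was highest in Set 1 at passage 4 (42.8 CPM, against 20.3 and 26.6 CPM in Sets 3 and 4). The same held at passage 11 (37.9 CPM, against 20.5 and 21.6 CPM). Bulk Etv5 of Set 1 lay between Sets 3 and 4 at both passages. The part of set and of passage in the single organoids was not tested.

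Dusp6 in Set 1 had a lowest, median and highest level of 14.7, 36.7 and 48.5 CPM. In Set 2 the 3 values were 3.68, 15.5 and 25.2 CPM, in Set 3 they were 15.2, 16.9 and 23.8 CPM, and in Set 4 they were 8.18, 14.8 and 32.6 CPM. The medians of Sets 2, 3 and 4 lay close together and that of Set 1 stood above the highest organoid of each of them. The log2 fold-change of Set 1 was 1.17 against Set 2 (SE 0.25, adj. P = 0.00115), 0.94 against Set 3 (SE 0.30, adj. P = 0.0345) and 1.09 against Set 4 (SE 0.24, adj. P = 0.00139, all edgeR). Without any 1 of organoids 1, 4, 5 and 6 of Set 3, the difference from Set 3 was not called (adj. P = 0.0733, 0.0607, 0.0724 and 0.0680, edgeR). Nor was it called with limma-voom (adj. P = 0.0571), and it was called in 8 of 15 alternatives, against 15 of 15 for the differences from Sets 2 and 4.

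Etv5, another ERK-induced gene, went the other way in Set 1, with 4.71, 9.73 and 12.4 CPM as lowest, median and highest. It had 6.06, 13.96 and 24.9 CPM in Set 2, 13.1, 16.3 and 27.4 CPM in Set 3, and 6.28, 13.8 and 25.7 CPM in Set 4. Set 1 did not overlap Set 3, which held for 3.69% of all genes, and overlapped the other sets. Its log2 fold-change was −0.78 against Set 2 (SE 0.25, adj. P = 0.0357), −1.06 against Set 3 (SE 0.29, adj. P = 0.0134) and −0.76 against Set 4 (SE 0.25, adj. P = 0.0349, all edgeR). Without organoid 3 of Set 3 the difference from that set was −0.84 (adj. P = 0.0779, edgeR). Dusp6 and Etv5 were 2 of 10 genes called in the same direction in all 3 comparisons with Set 1, against 3.92% of all genes. Against the mean of Sets 2 to 4, where 18% of all genes were called, the log2 fold-change was 1.07 for Dusp6 (SE 0.20, adj. P = 0.000142, edgeR) and −0.87 for Etv5 (SE 0.22, adj. P = 0.00480, edgeR), and both calls were made in 14 of 14 alternatives. In the same contrast Areg (−1.04, adj. P = 0.0900, edgeR) and Ereg (−1.52, adj. P = 0.0788) were not called, and neither were the other 6 genes, at −0.28 to 0.28 (adj. P of at least 0.146).

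Areg ranged most widely in Sets 1 and 2. Its lowest, median and highest level was 5.72, 20.3 and 81.7 CPM in Set 1 and 13.8, 40.6 and 301 CPM in Set 2. It had 36.9, 63.6 and 107 CPM in Set 3 and 9.26, 22.3 and 45.1 CPM in Set 4. In order of the medians the sets ran from Set 1 through Set 4 and Set 2 to Set 3, and only Set 2 was called against others: Set 1 was lower than Set 2 (log2 fold-change −1.72, SE 0.49, adj. P = 0.0157) and Set 2 was higher than Set 4 (1.73, SE 0.43, adj. P = 0.00530, both edgeR). Set 3 against Set 4 (1.43, adj. P = 0.0549) and Set 1 against Set 3 (−1.42, adj. P = 0.0856) were not called. Without organoid 2 of Set 1 and organoid 4 of Set 2, which had the highest Areg of their sets, all 4 of these differences were called (log2 fold-change −1.82, 1.18, 1.43 and −2.08, adj. P = 0.00370, 0.0224, 0.0152 and 0.00260, edgeR), an alternative chosen after seeing the data. In it, Dusp6 in Set 1 against Set 3 (adj. P = 0.0615), Etv5 in Set 1 against Set 2 (0.0854) and Egfr in Set 1 against Set 4 (0.0561) were no longer called. With limma-voom, Areg in Set 2 against Set 4 was not called (1.17, adj. P = 0.0642).

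Ereg had no count in 8 of 35 organoids and at most 26 counts. Its median was 0.413 CPM in Set 1, 2.31 CPM in Set 2, 0.892 CPM in Set 3 and 0.436 CPM in Set 4, and the highest organoid, at 8.52 CPM, was of Set 2. Set 1 was lower than Set 2 (log2 fold-change −2.83, SE 0.61, adj. P = 0.00155) and Set 2 was higher than Set 4 (2.37, SE 0.53, adj. P = 0.00226, both edgeR). Hbegf had 186, 225 and 360 CPM as lowest, median and highest in Set 1 and 145, 185 and 307 CPM in Set 2. In Set 3 it had 156, 211 and 255 CPM and in Set 4 130, 204 and 275 CPM. The sets overlapped, and none of the 6 comparisons was called, the largest difference being 0.33 between Set 1 and Set 4 (SE 0.15, adj. P = 0.143, edgeR).

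Egfr had 28.6, 37.2 and 50.4 CPM as lowest, median and highest in Set 3 and 7.62, 13.5 and 21.7 CPM in Set 4. These sets did not overlap, which held for 2.07% of all genes, and their log2 fold-change was 1.52 (SE 0.24, adj. P = 1.93e-05, edgeR). Set 1 had 13.4, 21.8 and 32.1 CPM and Set 2 had 10.3, 22.9 and 50.8 CPM. Set 4 was lower than Set 1 (Set 1 against Set 4 0.73, adj. P = 0.0220) and than Set 2 (Set 2 against Set 4 0.91, adj. P = 0.00241), and Set 1 was lower than Set 3 (−0.79, adj. P = 0.0365, all edgeR). The last call was not made without organoid 4 (adj. P = 0.0994) or organoid 6 (0.0999) of Set 3, and neither it nor Set 1 against Set 4 was made with all libraries thinned to the smallest total (0.0640 and 0.157, edgeR). Erbb2, Erbb3, Spry2 and Spry4 were not called in any of the 6 comparisons. Their medians by set were 11.2 to 16.9 CPM for Erbb2, 8.68 to 9.28 CPM for Erbb3, 37.5 to 57.9 CPM for Spry2 and 1.50 to 2.63 CPM for Spry4. The log2 fold-changes over the 6 comparisons were −0.56 to 0.43 for Erbb2, −0.03 to 0.00 for Erbb3, −0.59 to 0.07 for Spry2 and −0.19 to 0.71 for Spry4, with adjusted P-values (edgeR) of 0.0691 or more.

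The share of the 10 genes called can be set beside that of all 13927 genes in each comparison. It was 4 of 10 for Set 1 against Set 2 (14.3% of all genes), 3 of 10 for Set 1 against Set 3 (9.43%), 3 of 10 for Set 1 against Set 4 (20%), 0 of 10 for Set 2 against Set 3 (3.93%), 3 of 10 for Set 2 against Set 4 (12.4%) and 1 of 10 for Set 3 against Set 4 (11.6%).

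**Figure D3:**
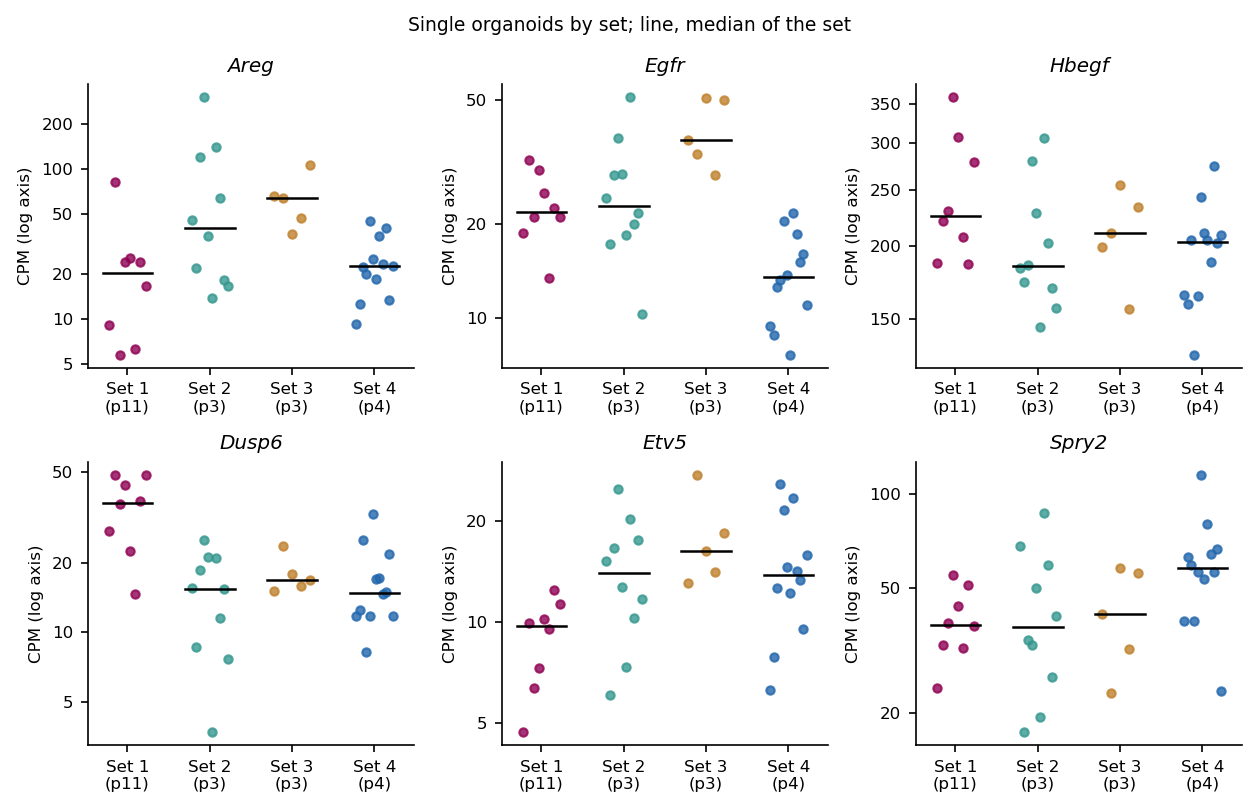
CPM (log axes) of Areg, Egfr, Hbegf, Dusp6, Etv5 and Spry2 in each of 35 single organoids, grouped by set with the passage in brackets; lines are set medians. The median of Dusp6 is 36.7 CPM in Set 1 and 14.8 to 16.9 CPM in the others, while Areg spreads from 13.8 to 301 CPM within Set 2.

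In Set 1, genes of the pathway lists differed from the mean of the remaining sets in both directions. Of all genes, 18% were called in this contrast, and no list was tested against that share. Of 4 other ligands tested, Tgfa (log2 fold-change 1.18, SE 0.21, adj. P = 4.39e-05, edgeR) and Btc (0.62, adj. P = 0.0197) were higher and Nrg1, which encodes neuregulin 1, was lower (−1.57, adj. P = 0.0293). Of 4 genes for ligand shedding, Adam10, a shedding protease, was higher (0.44, adj. P = 0.0125, edgeR) and Rhbdf2 lower (−0.65, adj. P = 0.00226). Of 5 genes for receptor control, Errfi1, a feedback inhibitor of EGFR, was higher (0.46, adj. P = 0.0275, edgeR) and Lrig1 lower (−0.80, adj. P = 0.00250). Of 18 cascade genes, 2 were higher, Map2k1 (0.46, adj. P = 0.0136, edgeR) and Mapk3 (0.44, adj. P = 0.0124), and 2 were lower, Ksr1, a scaffold of the cascade (−1.17, adj. P = 0.0399), and Nras (−0.44, adj. P = 0.00405).

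Of 16 other feedback genes and targets, 3 were lower in Set 1 and none was higher. They were Etv1, an ETS factor (−1.75, SE 0.55, adj. P = 0.0208, edgeR), Etv4 (−1.34, SE 0.24, adj. P = 5.60e-05, edgeR) and Ier3 (−0.62, adj. P = 0.00305). Ier3 is named as the third of 3 called genes and lies outside the rule for naming. The list had a median log2 fold-change of −0.28 against 0.01 over all genes. Of 8 proliferation genes, 6 were lower in Set 1, with sums of 407 to 1272 CPM there, 954 to 1660 CPM in Set 2, 921 to 1363 CPM in Set 3 and 827 to 1342 CPM in Set 4. In the bulk cultures, by contrast, 7 of the 8 were higher at passage 11. All 4 hepatocyte markers tested were called higher in Set 1 than the mean of the other sets. The list, with 6 of 7 genes in the table, summed to 550 to 2426 CPM in Set 1. It summed to 549 to 1500, 447 to 694 and 504 to 2651 CPM in Sets 2, 3 and 4. The median sum was 1202 CPM in Set 1 and 834, 517 and 1454 CPM in Sets 2, 3 and 4, so Set 4 was above Set 1. Alb had a median of 2.03 CPM in Set 1, with a highest value of 44.0 CPM, and medians of 3.76, 2.53 and 0.930 CPM in Sets 2, 3 and 4. Apoa1 reached 2.17 CPM at most. The part of either list in the differences above was not tested.

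Between organoids of the same set, the ligands Areg and Ereg varied more than most genes, and Hbegf less than most. The biological coefficient of variation, which is the spread beyond counting noise estimated within sets by edgeR, was 0.66 for Areg, 0.69 for Ereg and 0.23 for Hbegf, with a median of 0.28 over all 13927 genes. The percentile of Areg was 98.4 among all genes and 99.6 among 500 genes of like level. This estimate joins the 4 sets. The standard deviation of Areg CPM was 102% and 116% of the mean in Sets 1 and 2, and 41.7% and 46.5% in Sets 3 and 4. For Ereg the percentiles were 98.6 and 96.2, where low counts make the estimate less certain, and for Hbegf they were 26.4 and 32.9. The other 7 genes lay between 0.27 for Erbb2 and 0.39 for Spry4, and 8 of the 10 were above the median. With all libraries thinned to the smallest total, 6 were above it, and the percentile was 98.6 for Areg and 24.9 for Hbegf, while that of Spry4 went from 84.3 to 30.4 and Ereg had too few counts for an estimate.

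**Figure D4:**
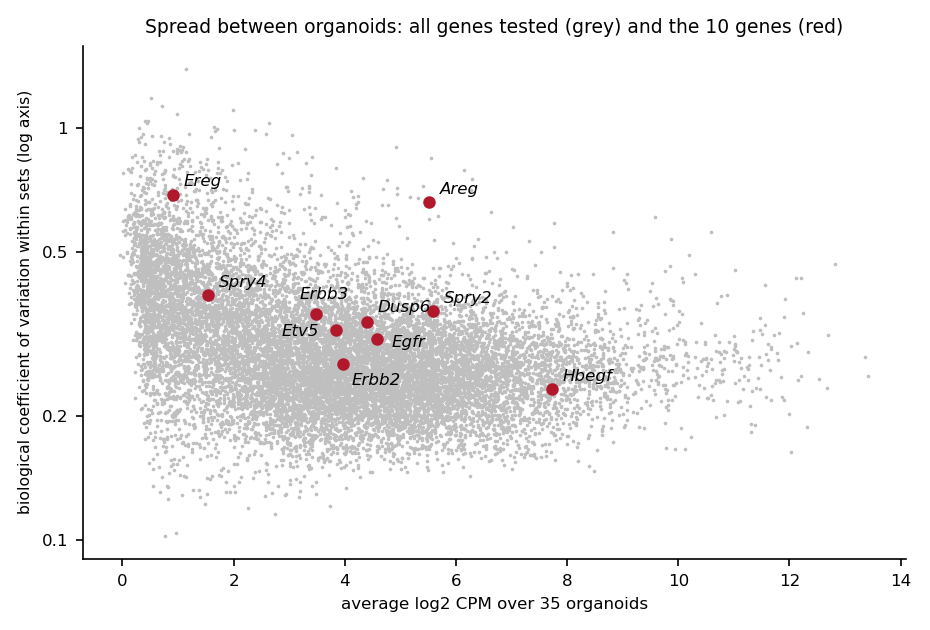
Biological coefficient of variation within sets (log axis) against average log2 CPM over 35 organoids, for 13927 genes in grey and the 10 genes in red. Areg, at 0.66, lies above nearly all genes of like level, Hbegf, at 0.23, lies within the cloud, and the remaining genes lie between 0.27 and 0.69.

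Whether ligand and feedback genes varied together was examined within Sets 1, 2 and 4 for 7 pairs, thus 21 relations, on log2 CPM. By Pearson's r, 2 relations passed an adjusted P-value of 0.05, both in Set 2. Areg rose with Hbegf across its 10 organoids (r = 0.83, permutation P = 0.00291, adjusted 0.0453; rho = 0.90, P = 0.000850, adjusted 0.0178), with r = 0.63 without the 2 organoids farthest from the median of Areg. Dusp6 rose with Etv5 (r = 0.81, permutation P = 0.00431, adjusted 0.0453; rho = 0.78, P = 0.0104, adjusted 0.0548), with r = 0.88 without the 2 farthest. By Spearman's rho, Areg with Hbegf and 2 further relations passed. They were Areg with Dusp6 in Set 2 (rho = 0.81, permutation P = 0.00685, adjusted 0.0479; r = 0.75, adjusted 0.0530) and Dusp6 with Spry2 in Set 4 (rho = 0.76, permutation P = 0.00631, adjusted 0.0479; r = 0.72, adjusted 0.0530). Without the 2 farthest organoids their r was 0.65 and 0.52. For Areg with Dusp6, r was 0.55 in Set 1 and 0.09 in Set 4. In the other sets, r was 0.25 and 0.38 for Areg with Hbegf and 0.11 and −0.15 for Dusp6 with Etv5 in Sets 1 and 4, none past the threshold (adjusted exact or permutation P of at least 0.407), and the difference between sets was not tested. Areg and Ereg had r = 0.65, 0.76 and 0.63 in Sets 1, 2 and 4 (adjusted exact or permutation P = 0.251, 0.0543 and 0.106), positive in all 3 sets but not past the threshold. After thinning to the smallest total, 0 relations passed by Pearson's r. No share over all pairs of genes was computed beside these relations. Over the 35 organoids with set means subtracted, the TMM factor had an r of 0.69 with Dusp6 and 0.61 with Spry2. It had 0.45 with Areg, 0.40 with Etv5 and 0.33 with Hbegf. The part of the scaling in these relations was not tested.

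**Figure D5:**
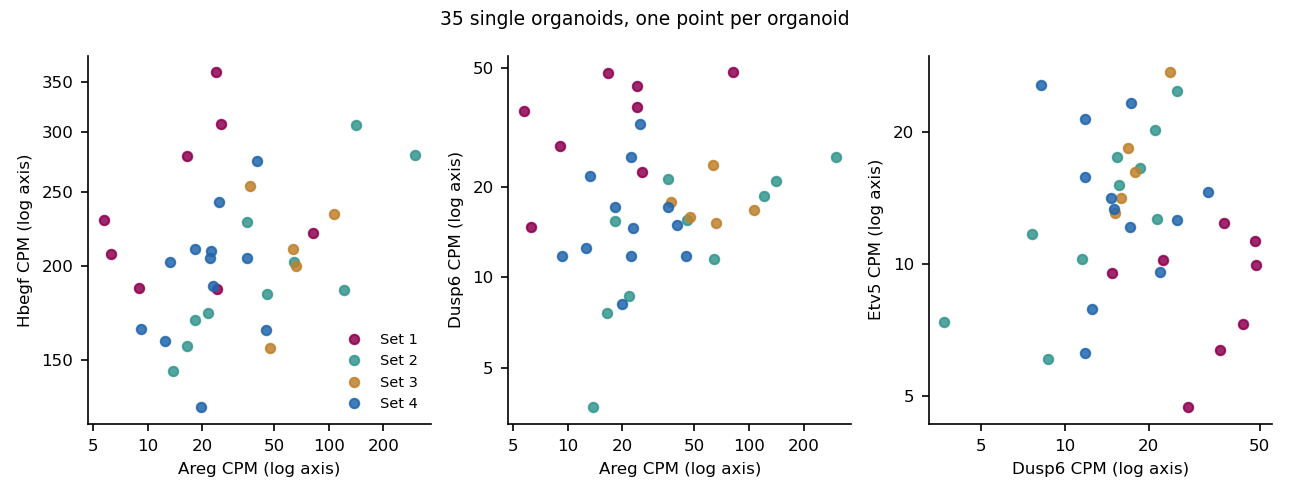
CPM (log axes) of Hbegf and Dusp6 against Areg and of Etv5 against Dusp6, one point per organoid and coloured by set. In Set 2 Hbegf rises with Areg (r = 0.83) and Etv5 with Dusp6 (r = 0.81), while Set 1 lies at high Dusp6 and low Etv5.

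Over all 35 organoids, with set means subtracted, the genes most like Areg among the 6487 genes whose average log2 CPM was 4 or more were Gemin5 (r = 0.86), Gnl3 (0.86), Slfn9 (0.85), Socs2 (0.85) and Ptpn13 (0.84). Egfr was at rank 120 (r = 0.71), Dusp6 at rank 983 (0.54) and Hbegf at rank 1175 (0.51). Those most like Dusp6 were Rnmt (r = 0.84), Rlf (0.84), Wapl (0.83), Secisbp2l (0.83) and Zfp930 (0.82). Hbegf, Areg, Egfr and Spry2 were at ranks 1254, 1559, 1656 and 1868. These correlations are descriptions across organoids that share a table and its scaling. The TMM factor of the library, centred in the same way, had an r of 0.69 with Dusp6 and 0.45 with Areg, and the log2 total had −0.18 and −0.16. The part of the scaling in the likeness was not tested.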

How the data were processed

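The tables deposited by the authors hold whole-number gene counts from 3′-end libraries with unique molecular identifiers. The methods name zUMIs for the processing, and the submitters' notes list STAR, featureCounts, SAMtools 1.9, edgeR 3.28.1 and limma 3.42.2 under R 3.6.3 on GRCm38. Whether counts are molecules or reads, and the strand setting, are not given in the sources used here. Bulk cultures gave total RNA, and single organoids gave bead-purified mRNA with input scaled by Actb. All 60 samples were grouped by their labels, the passage of the single organoids was taken from the methods, and the 7 organoids the study left out returned only in an alternative. There were 0 columns without a sample. Gene symbols were missing for 24, 24 and 42 identifiers of the 3 tables.

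The filter of filterByExpr (minimum count 3) and TMM scaling left 12699, 13738 and 13927 genes. Differences were tested by quasi-likelihood F-tests in edgeR 4.0.16 (R 4.3.3) with Benjamini-Hochberg adjustment over all genes, and for the 4 sets over all genes and 6 comparisons, at a threshold of 0.05. Standard errors were derived from the F statistic. The 2 technical replicates of each passage culture differed by more than sampling noise in the chi-square test (1.08 to 2.55 per degree of freedom) and were summed. Correlations used voom log2 CPM from limma 3.58.1 with two-sided permutation tests (100000 resamples), exact for Set 1, in which only Pearson and Spearman coefficients within a set were computed. CPM values carry counting error at low counts: 3 counts correspond to 0.228 to 2.20 CPM in the dome libraries. The fits were tested on simulated data.

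All 10 genes are given in every comparison, some between sets by levels or ranges only. Of the pathway lists, at most 2 called genes in each direction, those with the largest change, are named per list and comparison, and for Areg and Dusp6 the 5 most similar genes. For 1 gene that this rule would name, the result is not reported here. Members and lists were chosen with earlier results of these data known. Alternatives were limma-voom, DESeq2 1.42.0, RLE size factors, a minimum count of 10, no low-count filter, a replicate block, thinning to the smallest total, leaving out single replicates (of the single organoids, those of Set 3 only), 1 technical replicate, all 42 organoids, separate adjustment and log2 CPM with a prior count of 2. Same-numbered passage cultures are the same mouse, and the labels describe 3 pools each grown in both formats without tying numbers to pools. Numbers 1 to 3 were paired because their deviations correlated by over 0.1, a rule that the known pair of Set 3 did not meet. Differently numbered libraries were not compared, so the correlations do not establish the pairing, which is an assumption. Deviations from the group means correlated by 0.153, 0.165 and 0.191 for numbers 1 to 3 of dome and suspension, and by 0.110, 0.0283 and 0.108 for Sets 1, 3 and 4.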

Additional observations from a re-analysis of the deposited data

Results flagged for a closer look

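Among 30 groups of 4 to 10 organoids, 5 had 1 organoid far above the rest of its set by Dixon's criterion. Set 4, with 12 organoids, was too large for the criterion as used and was not examined. The criterion assumes normally distributed values, which was not checked for CPM, so the number flagged by chance is not known here. Areg was 81.7 CPM in organoid 2 of Set 1, where the next value was 25.6 CPM. It was 300.6 CPM in organoid 4 of Set 2, followed by 141 CPM. Erbb3 was 23.9 CPM in organoid 5 of Set 1, followed by 9.75 CPM, and 21.2 CPM in organoid 6 of Set 2, followed by 13.3 CPM. Spry4 was 7.77 CPM, or 10 counts, in organoid 7 of Set 1, followed by 3.83 CPM.

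For 2 genes the sign of the difference between passages was not the same in all sets. In each set, both technical replicates of passage 11 lay on the same side of both of passage 4. The log2 difference of Hbegf, passage 11 minus passage 4, was −0.83 in Set 1, −0.94 in Set 3 and 1.09 in Set 4. That of Spry2 was −0.19 in Set 1, 1.08 in Set 3 and 0.72 in Set 4. In Set 1, Spry2 had 69 counts at passage 4 and 70 at passage 11, so a movement beyond counting error is not shown there. With 1 culture per set and passage, these differences between sets were not tested.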

How the results depend on the processing

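None of the results changed direction while called under any alternative run. Between domes and suspension, 3 of the 10 genes and 3779 genes in all were called, against 1 of the 10 after thinning to the smallest total and 5 with the replicate number as a replicate block, where Areg and Spry2 were added (4019 genes in all). Without single libraries the counts were 0 to 4 of the 10 and 1893 to 3837 in all. Dusp6 was not called with DESeq2 (adj. P = 0.0554), without the low-count filter (0.0730) or after thinning (0.0600), and Egfr not after thinning (0.0565), while Areg was called with DESeq2 (0.0334) and Areg (0.000312) and Spry2 (0.0343) without the filter. Between passages, 3 of the 10 were called in every alternative except without the low-count filter, which added Ereg, and 2784 genes in all, against 1811 after thinning, 1717 with technical replicate 1 only and 1552 to 2244 without single cultures. The replicate block by set gave 2950 and changed no call of the 10. Over the 6 set comparisons, 14 tests of the 10 genes were called, and 12 or 13 without single Set 3 organoids. All genes gave 9962 calls, against 5943 after thinning, 6137 with all 42 organoids, and 8355 to 10061 without single Set 3 organoids. Organoid numbers did not pair the organoids (correlations −0.37 to 0.41, median 0.06), and a replicate block by number gave 9 of the 14 calls and 6463 in all. Set 1 against Sets 2 to 4 gave 2512 genes, and 1389 after thinning. Of 21 relations, 2 passed, against 5 with a prior count of 2, 0 after thinning, where Ereg could not be used, and 6 with all 42 organoids. The causes were not tested, apart from the smaller counts that thinning makes. Among single genes and relations, 41 alternatives ended a call, 27 made one and 1274 changed none. RLE size factors moved the median of all genes by under 0.1 on the log2 scale. Ereg and Spry4, at 0 to 36 and 0 to 19 counts, are limited by depth.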

Other observations

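Hbegf had 130 to 360 CPM in the 35 single organoids, 26.9 to 53.0 CPM in dome and suspension cultures and 10.7 to 37.5 CPM in the passage cultures, so that the lowest organoid was above every bulk library. Spry2 had 17.3 to 115 CPM, 4.72 to 13.5 CPM and 10.2 to 29.3 CPM in the same order. The 3 tables were scaled separately and the bulk and single organoid RNA was extracted by different kits, so these levels were not tested. Areg did not show the same order. It had 5.72 to 301 CPM in single organoids, 44.9 to 191 CPM in dome and suspension cultures and 29.3 to 1634 CPM in the passage cultures. In Set 1 at passage 11, Areg was 145 CPM in the bulk culture and 5.72 to 81.7 CPM in the 8 single organoids.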
